A study of Drosophila melanogaster with 13 samples.

Results

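The 9 genes CR40469, CG9119, ppk20, CG33080, CG13360, tmod, CG7582, CG10559 and CBP are those that stood out in the miP stock, in which the micropeptide MSAmiP is deleted, among the 16727 genes counted in secondary cells of the Drosophila male accessory gland. They were taken from the comparison of miP with wild type, where they were 9 of the 10 genes with the smallest p, so their values in that comparison are given as a description. The question for each is whether its level goes with the miP genotype or differs from stock to stock. The 3 D1 libraries were from another mutant stock. In counts per library total, 2 of the 9 lay wholly on the same side of wild type as in miP. These were CR40469 (far lower) and CG13360 (higher), beside 4.61% of all genes tested. CG10559 joined them once the libraries were scaled. Another 3 that were almost absent from miP (CG9119, ppk20 and CBP) lay above wild type in D1. CG33080 was highest in miP and uneven in D1, and tmod, CG7582 and CG10559 were lowest in miP among the sorted cells. D1 also had little of the transcript that encodes MSAmiP. For a level shared by both mutants, genotype and stock therefore cannot be told apart.

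Secondary cells are large, granule-filled epithelial cells at the tip of the accessory gland, which add proteins to the seminal fluid beside the far more numerous main cells. Their identity depends on Hox genes of the Bithorax complex, and the male-specific iab-8 transcript of that complex, also known as msa, encodes MSAmiP. Fly stocks built separately carry different X and autosomal chromosomes, so a transcript can differ between them through linked sequence variants or transposon insertions as well as through the named mutation.

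RNA was sequenced from 13 libraries of males aged 5 to 11 days. The 3 miP libraries were from flies of the genotype D1:GAL4, UAS-GFP; delta MSAmiP, the 3 D1 libraries from D1:GAL4, UAS-GFP; iab-6cocuD1, and the 3 wild-type libraries from D1:GAL4, UAS-GFP alone. For these, dissected glands were digested with a protease and GFP-positive cells were sorted. Another 3 libraries were ribosome immunoprecipitations (ribosome IPs) with an anti-GFP antibody from UAS GFP-RPL10Ab, D1:GAL4 flies, whose tagged ribosomal protein is made under the same driver, and 1 control IP came from UAS GFP, D1:GAL4 flies without the tagged ribosomal protein. Every fly carried the driver D1:GAL4, so D1 in the name of the driver does not mark the D1 mutant. Each mutant was 1 stock, the labels name no parent strains, and no genotype lists a rescue construct, so that the mutation and the rest of the stock's genome cannot be told apart within any one group. The replicates are called biological in the series' description, with no further account of their source.

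In units of 1e6 counts, the sorted libraries held 18.2 to 26.1, the ribosome IPs 11.2 to 21.4 and the control IP 3.70. All 9 secondary cell markers examined were detected in every group. Their summed level was 458881 to 571264 CPM (counts per 1e6 of the library) in miP, 351425 to 578547 in D1, 95584 to 168154 in the ribosome IPs, 10644 in the control IP and 571317 to 584586 in wild type. CG9029 was the highest of these markers, with mean CPM of 222105 in miP, 222555 in D1 and 317126 in wild type. In D1, 4 of the 9 markers were lower than in wild type (adjusted p under 0.05, edgeR), beside 3.62% of all genes tested. DESeq2 called abd-A, iab-8, lectin-46Ca and lectin-46Cb there. The IPs hold RNA of the rest of the gland and of tissue attached to it: 12 main cell markers summed to 14096 to 21132 CPM in the ribosome IPs and 35224 in the control IP, against 84.1 to 1705 CPM over the sorted libraries. Likewise 14 testis markers summed to 11661 to 12763 CPM in the ribosome IPs and 19525 in the control IP, against 8.60 to 27.2 CPM in sorted cells. In the check of the labels, abd-A, a Hox gene of the complex, had 218 to 352 CPM in miP, 0 to 0.0938 CPM in D1 and 175 to 210 CPM in wild type. The iab-8 transcript, which encodes MSAmiP, had 720 to 879 CPM in miP, 45.0 to 91.3 CPM in D1 and 759 to 955 CPM in wild type. For a level shared by miP and D1, loss of MSAmiP and the stock thus cannot be told apart. The counts over the whole iab-8 unit do not check the small deletion in miP. Replicate 1 of each mutant stood apart, with scaling factors of 0.797 in miP and 0.905 in D1, against 1.01 and 1.06 in the other miP libraries, 1.52 and 1.58 in the other D1 libraries and 0.798 to 0.831 in wild type. Results that turn on these libraries are given with and without them.

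The 9 genes were chosen on an adjusted p of up to 0.109 in miP against wild type (edgeR quasi-likelihood test, Benjamini-Hochberg adjustment over the 8222 genes tested). Of the 9, 6 lay under the threshold of 0.05, beside 0.0851% of all genes tested. Just inside the list were CG7582 with an adjusted p of 0.0526 and CG10559 and CBP with 0.109 each. Just outside was CG1444 with 0.169 (log2 fold change -1.21 ± 0.22, SE). The neuronal synaptobrevin gene nSyb, which lies at rank 7 with an adjusted p of 0.0487, was the 1 gene past 0.05 that is not among the 9. All 9 passed the default filter on low counts in every comparison. The miP and wild-type libraries did not overlap for any of the 9 genes, beside 14.1% of all genes tested, and the choice of genes fixes that outcome.

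The number of calls in miP against wild type rested on single libraries. It was 0 without miP replicate 2, 2 without miP replicate 1 or 3 or wild-type replicate 1 or 3, and 3 without wild-type replicate 2. With replicate 1 of miP and of D1 both left out it was 993 of 8536 genes, and all 9 genes were then among them. None of the 9 genes changed direction in this comparison under any of these settings. Over 14 alternative settings the call was lost in 10 for tmod, 7 for CG13360, 6 for CG33080 and 5 for ppk20. CR40469 and CG9119 lost it in 1 each. CG7582 and CG10559 gained a call in 4 and 3 of 14, and CBP in 3 of 13.

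**Figure D1:**
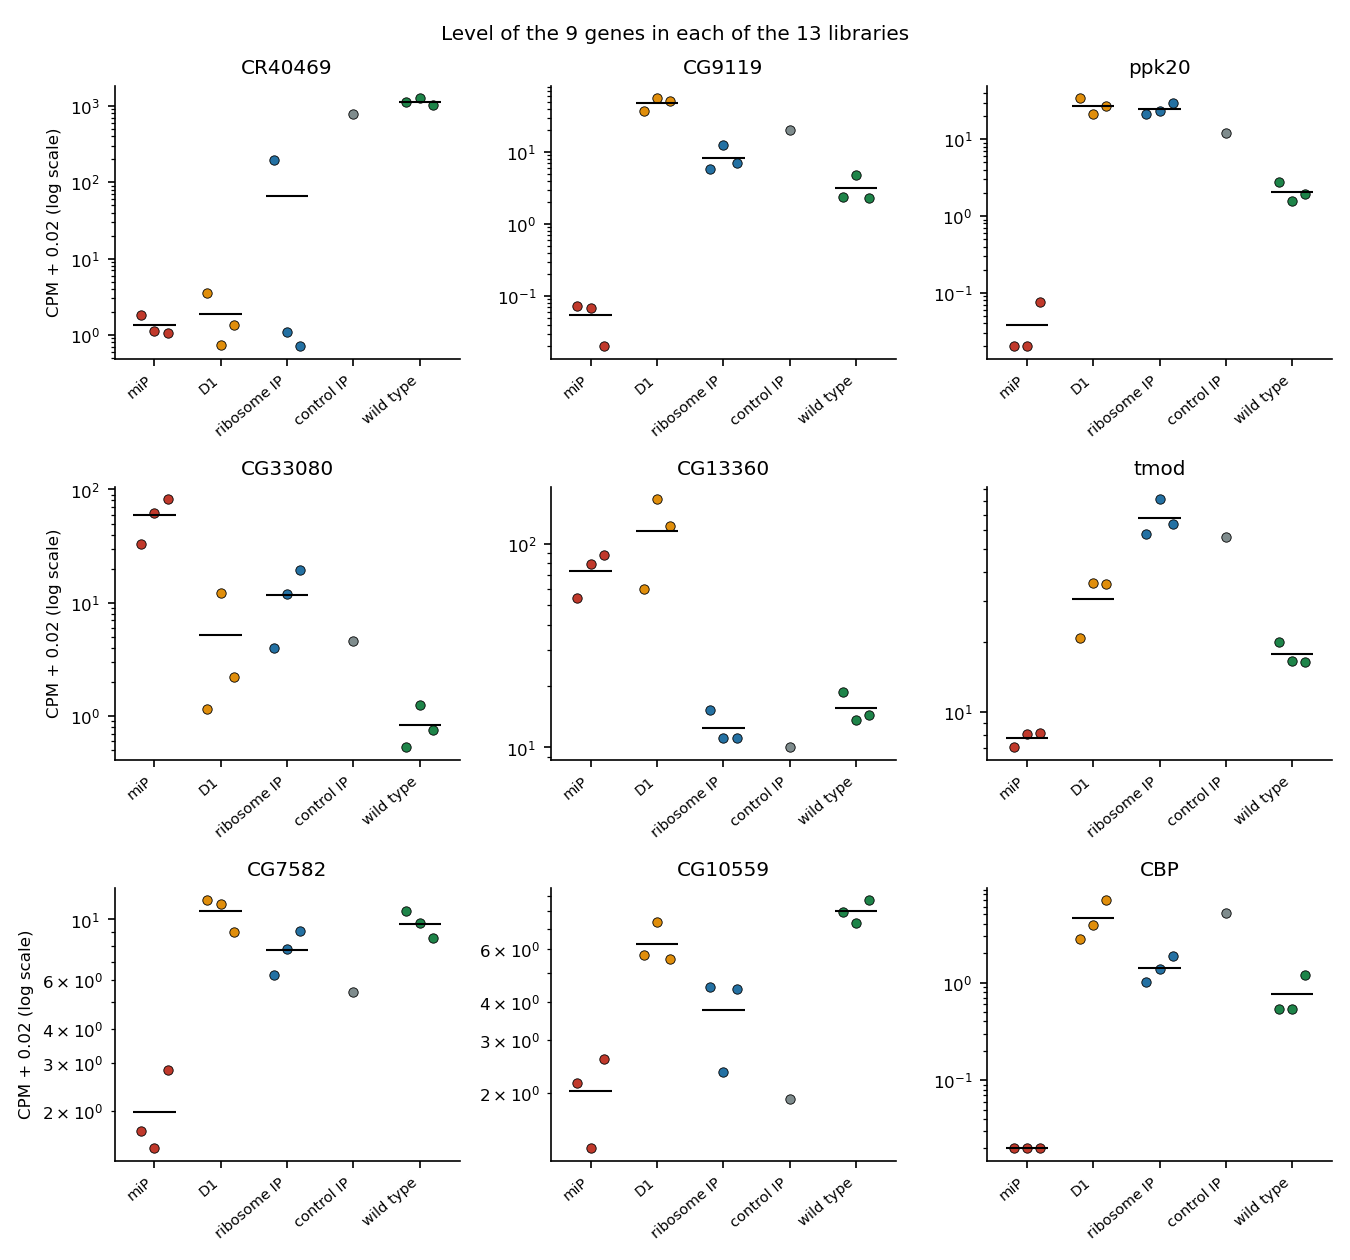
Level of each of the 9 genes in the 13 libraries, as CPM plus 0.02 on a log axis with a range of its own for each gene. Each point is 1 library and each bar the mean CPM of its group. CR40469 is low in miP, D1 and ribosome IPs 2 and 3, CG13360 is high in both mutants, and CG9119, ppk20 and CBP lie at or near 0 in miP alone.

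CR40469, annotated as a non-coding RNA of 214 nt, lies near the tip of the X chromosome at 122493 to 122706 on the plus strand (dm6). It was the most abundant of the 9 in wild type and almost lost from both mutants. It had 1.83, 1.10 and 1.04 CPM in miP, 3.53, 0.722 and 1.31 CPM in D1, and 1114, 1257 and 1018 CPM in wild type. The IP stocks were split as well: the ribosome IPs had 199, 1.07 and 0.688 CPM and the control IP 778 CPM (95% Poisson interval 750 to 807, counting error only). High and low values thus occurred in libraries of the same genotype label, with ribosome IP 1 between ribosome IPs 2 and 3 and the control IP. Summed over libraries it had 76 counts in miP and 79368 in wild type, an 850-fold lower share (95% interval of the ratio of counts 679 to 1079). The log2 fold change was -9.91 ± 0.87 (SE) in miP against wild type and -9.69 ± 0.86 in D1 against wild type (adjusted p = 1.39e-04, edgeR). These comparisons share the wild-type libraries, which took part in choosing the gene. Between miP and D1 the libraries overlapped, with a log2 fold change of -0.22 ± 0.67 and an SE larger than the difference.

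CG13360, a protein-coding gene, is on the same chromosome arm end at X 787855 to 790089 (minus strand), 665 kb from CR40469. It was higher in both mutants. Its level was 54.1, 78.9 and 87.8 CPM in miP, 59.8, 165 and 122 CPM in D1, and 18.6, 13.5 and 14.5 CPM in wild type, so that no mutant library reached down to wild type. The ribosome IPs, with 15.2, 11.1 and 11.1 CPM, and the control IP, with 9.997 CPM (7.04 to 13.8), were near or below the wild-type range on CPM. Once scaled, the ribosome IPs were lower than wild type, with a log2 fold change of -1.87 ± 0.24 (adjusted p = 9.20e-05, edgeR). The log2 fold change was 2.00 ± 0.25 in miP and 2.14 ± 0.25 in D1 (adjusted p = 5.88e-04), again against the same wild-type libraries, and -0.13 ± 0.24 for miP against D1. Its last 361 nt of exon overlap exons of tw, an O-mannosyltransferase gene on the opposite strand, and the libraries keep no strand. The log2 fold change of tw was -0.45 ± 0.53 in miP and 1.82 ± 0.54 in D1, where it did not pass 0.05 in edgeR (adjusted p = 0.0621) and passed in DESeq2 (adjusted p = 0.00750). The part of tw reads in the D1 level of CG13360 was not tested.

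To see how common such a pattern is, the libraries were compared without a fit. All miP and all D1 libraries lay on the same side of all wild-type libraries for 2 of the 9 genes, CR40469 and CG13360, beside 4.61% of all genes tested. With scaled CPM CG10559 joined them, which made 3 of the 9, beside 3.37% of all genes tested. The choice of genes fixed that miP and wild type did not overlap, which on CPM held for 14.1% of all genes tested. Neither count is therefore a test. A gap of at least 2-fold between the nearest mutant and wild-type library (0.2 CPM added to each value) was met by 3 of the 8222 genes: CR40469, CG13360 and CG32816. This criterion and CG32816 were chosen after the values were seen. All 3 lie within 1 Mb of the tip of the X chromosome. CG32816, at 316576 to 470726, had 1.56, 1.87 and 1.59 CPM in miP, 0.762, 0.413 and 0.0469 CPM in D1, 6.71, 4.39 and 5.04 CPM in the ribosome IPs, 8.65 CPM in the control IP, and 7.36, 11.1 and 13.4 CPM in wild type. It was lower in every mutant library than in every other one, with a log2 fold change of -2.88 ± 0.67 in miP and -5.21 ± 0.77 in D1 (adjusted p = 0.00216).

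The body colour gene y (yellow), whose mutant alleles mark many laboratory X chromosomes, lies inside CG32816 at 356509 to 361245. It was counted 42 times in ribosome IP 1, the ribosome IP with the highest CR40469, 1 time in each of ribosome IPs 2 and 3 and in the control IP, and 0 times in all 9 sorted libraries. The eye colour gene w (white), which also marks inserted transgenes, had 354, 558 and 612 CPM in miP, 292, 865 and 891 CPM in D1, 24.96, 11.6 and 21.0 CPM in the ribosome IPs, 2.97 CPM in the control IP, and 448, 437 and 431 CPM in wild type. It did not pass the test in either mutant (log2 fold change -0.036 ± 0.248 in miP and -0.15 ± 0.25 in D1). Of the other 62 genes tested in the first 1 Mb of the X chromosome, a window drawn around CR40469 and CG13360, 3 had an unadjusted p under 0.05 in miP (4.84%, beside 3.55% of all genes tested), CG32816, CG13375 and CG16989. In D1 it was 11 of the 62 (17.7%, beside 22.5% of all genes tested). After adjustment 0 of the 62 passed in miP in edgeR and 2 in DESeq2, and in D1 5 passed in edgeR (8.06%, beside 9.77% of all genes tested) and 8 in DESeq2. The DESeq2 counts are given without their share over all genes, so they do not describe the window as a set. Whether the stocks differ in sequence at the X tip was not tested.

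**Figure D2:**
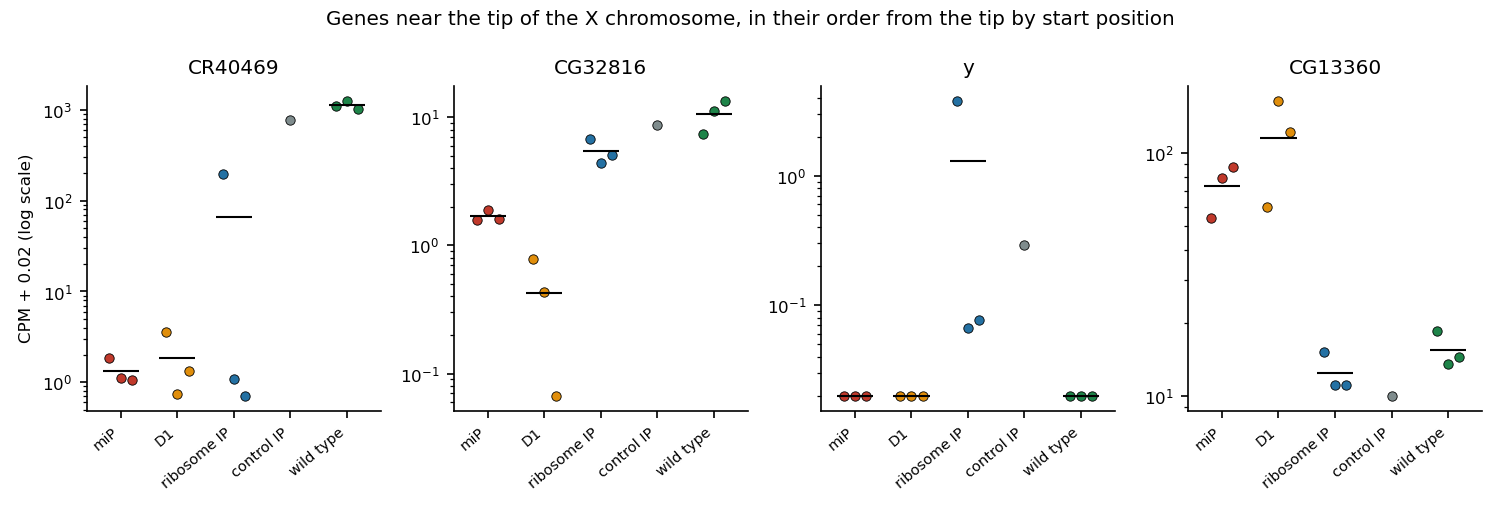
Levels of 4 genes near the tip of the X chromosome in each library, as CPM plus 0.02 on a log axis, ordered by start position. Points are libraries and bars are group means. CR40469 and CG32816 are low and CG13360 is high in all 6 mutant libraries, and y was counted 42 times in ribosome IP 1 and at most 1 time elsewhere.

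CG9119 is a protein-coding gene at 3L 1203316 to 1204795 (minus strand). It was at 0.0538, 0.0480 and 0 CPM in miP, which is 2 counts in all. D1 had 37.0, 55.8 and 51.2 CPM and wild type 2.34, 4.81 and 2.26 CPM. The groups did not overlap, and D1, not wild type, was the high group. The ribosome IPs had 5.73, 12.5 and 6.94 CPM and the control IP 20.5 CPM (16.2 to 25.7), all above wild type on CPM. Once scaled, the ribosome IPs did not differ from wild type beyond the error (log2 fold change -0.13 ± 0.45, adjusted p = 0.790). The share of counts in miP was 87.9-fold lower than in wild type (24.1 to 731, for 2 counts against 216), and the fitted log2 fold change was -6.51 ± 0.60. D1 was higher than wild type, with 3.25 ± 0.37 (adjusted p = 5.81e-04), and miP against D1 gave -9.76 ± 0.59.

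ppk20, also almost absent from miP, encodes a subunit of the pickpocket family of DEG/ENaC sodium channels and lies at 3R 29666814 to 29668877 (minus strand). It had 0, 0 and 0.0549 CPM in miP (1 count in all), 34.1, 21.0 and 27.2 CPM in D1, and 2.72, 1.56 and 1.92 CPM in wild type. The ribosome IPs had 21.7, 23.6 and 30.1 CPM and the control IP 11.9 CPM (8.64 to 16.0). The D1 libraries and the ribosome IPs overlapped, wild type was lower than every IP library on CPM, and miP was below all of them. The miP share was 120-fold lower than in wild type (21.2 to 4759, for 1 count against 147). The log2 fold change was -6.73 ± 0.80 in miP and 3.17 ± 0.47 in D1 (adjusted p = 0.00216), both against the shared wild-type libraries, and -9.90 ± 0.77 for miP against D1.

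CBP here is the gene of the sarcoplasmic calcium-binding protein, an EF-hand protein, and not the acetyltransferase known by the same letters. It lies at X 7337352 to 7342731 (plus strand), within introns of CG1677 and of a long non-coding RNA on the opposite strand. It had 0 counts in all 3 miP libraries, which allows up to 0.0521 CPM (3 counts over the group). D1 had 2.81, 3.92 and 6.94 CPM, the ribosome IPs 0.984, 1.36 and 1.83 CPM, the control IP 5.13 CPM (3.09 to 8.02) and wild type 0.510, 0.519 and 1.19 CPM. Against that floor CBP was at least 14.7-fold lower in miP than in wild type and at least 88.1-fold lower than in D1. The D1 libraries lay above the wild-type ones, with a log2 fold change of 1.87 ± 0.57 that did not pass 0.05 (adjusted p = 0.0880; 0.0176 with DESeq2). Wild type held only 54 counts in 3 libraries, the fewest of the 9 genes.

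Since these values are per total RNA, fewer cells that express a gene and less of its RNA per cell cannot be told apart. The genes most like CG9119, ppk20 and CBP over the 9 sorted libraries included nSyb in each case, with Pearson's r of 0.981, 0.988 and 0.950 among 5319 genes compared, and the cytoplasmic actin gene Act42A for ppk20 (0.985) and CBP (0.948). The 9 libraries share 3 genotypes, and these values describe likeness only. nSyb, the vesicle fusion protein of neurons at 3L 1630348 to 1637752, had 6.29, 7.68 and 7.58 CPM in miP, 126, 131 and 98.1 CPM in D1, and 27.9, 25.1 and 22.3 CPM in wild type. Its log2 fold change was -2.03 ± 0.29 in miP and 1.64 ± 0.29 in D1 (adjusted p = 0.00558). The ribosome IPs had 78.4 to 114 CPM of nSyb and the control IP 7.02 CPM. The 5 neuronal markers together (elav, nSyb, Syt1, brp and Rdl) summed to 12.7 to 16.0 CPM in miP, 108 to 143 in D1, 93.9 to 124 in the ribosome IPs, 44.9 in the control IP and 30.0 to 35.2 in wild type. Without nSyb the sums were 5.00 to 8.402 CPM in miP, 9.29 to 11.9 in D1, 9.84 to 15.6 in the ribosome IPs, 37.8 in the control IP and 4.86 to 8.13 in wild type. Of the 3 neuronal markers tested, nSyb was the 1 that passed 0.05, lower in miP and higher in D1, and Rdl was at 0 in miP and in wild type. The part of neuronal RNA in the levels of CG9119, ppk20 and CBP was not tested.

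CG33080, a protein-coding gene at X 5708559 to 5717778 (minus strand), was the 1 gene of the 9 that was high in miP and near 0 in wild type. It had 32.7, 62.5 and 81.7 CPM in miP and 0.510, 1.23 and 0.728 CPM in wild type. D1 was uneven, with 1.14, 12.2 and 2.20 CPM, so that it overlapped with wild type and stayed below miP. The ribosome IPs ranged from 3.94 to 19.3 CPM (3.94, 11.8 and 19.3) and the control IP had 4.59 CPM (2.68 to 7.35), between wild type and miP. The log2 fold change was 5.90 ± 0.79 in miP against wild type, 1.83 ± 0.70 in D1 against the same wild type (adjusted p = 0.147) and 4.07 ± 0.71 for miP against D1. The D1 value rested on single libraries: it passed without D1 replicate 1, at 2.22 ± 0.63 (adjusted p = 0.0271), and was 0.43 without D1 replicate 2. With DESeq2 it passed too (adjusted p = 0.0375). Some of its exon, 75 nt, overlaps CG4096 (AdamTS-B, a secreted metalloprotease gene) on the other strand. CG4096 had 7.04, 10.9 and 5.71 CPM in miP, 1.24, 6.50 and 12.9 CPM in D1, and 1.53, 1.13 and 0.537 CPM in wild type. Its log2 fold change of 2.68 ± 0.63 in miP did not pass 0.05 in edgeR but did in DESeq2, as did its 1.83 ± 0.62 in D1 (edgeR adjusted p = 0.101), and without strand the reads of the shared stretch cannot be assigned.

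The remaining 3 genes lie on 3R, and their fitted changes in miP were smaller than those of CR40469, CG9119, ppk20 and CG33080. tmod encodes tropomodulin, which caps the pointed ends of actin filaments, at 30532607 to 30578905 (plus strand). It had 7.04, 8.02 and 8.13 CPM in miP, 20.8, 35.6 and 35.2 CPM in D1, and 20.0, 16.5 and 16.3 CPM in wild type. D1 lay just above wild type on CPM, but the libraries overlapped once scaled, and the log2 fold change was 0.082 ± 0.195 in D1 (adjusted p = 0.873) beside -1.41 ± 0.20 in miP. In the ribosome IPs it had 58.2, 81.4 and 63.7 CPM and in the control IP 56.2 CPM (48.8 to 64.4), above all sorted libraries on CPM. Once scaled, the ribosome IPs differed from wild type by 0.38 ± 0.18 on the log2 scale, which did not pass (adjusted p = 0.0715). The 14 muscle markers, of which tmod is not one, were also higher in the IPs, with sums of 11.9 to 19.1 CPM in miP, 10.9 to 28.7 in D1, 364 to 739 in the ribosome IPs, 700 in the control IP and 5.36 to 65.1 in wild type. The 3 that were tested did not pass 0.05 in either mutant in edgeR, and DESeq2 called Mlc2 in D1. Act88F, TpnC73F, TpnC47D and Mp20 were at 0 in miP, but Act88F was also at 0 in wild type and Mp20 in D1. The highest of them in sorted cells, sls, had a mean of 13.2 CPM in miP and 7.12 CPM in wild type. The wild-type sum of 65.1 CPM was replicate 2, beside 5.36 and 7.90 CPM in replicates 1 and 3. The part of muscle RNA in the level of tmod was not tested.

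CG7582, at 29680241 to 29682278 (minus strand), had 1.67, 1.44 and 2.80 CPM in miP, 11.7, 11.3 and 9.003 CPM in D1, and 10.7, 9.68 and 8.55 CPM in wild type. D1 and wild type overlapped and miP lay below both. The ribosome IPs had 6.26, 7.76 and 9.06 CPM and the control IP 5.40 CPM (3.30 to 8.35), each above every miP library. Against wild type, its log2 fold change was -2.52 ± 0.38 in miP and -0.45 ± 0.35 in D1 (adjusted p = 0.524). CG10559, of the ecdysteroid kinase-like family, lies at 25314494 to 25316116 (minus strand). It had 2.15, 1.30 and 2.58 CPM in miP, 5.72, 7.32 and 5.53 CPM in D1, and 7.91, 7.32 and 8.66 CPM in wild type. Its D1 libraries touched the wild-type range on CPM and lay below it once scaled, between miP and wild type. On the log2 scale it differed by -2.20 ± 0.36 in miP and by -1.01 ± 0.35 in D1 (adjusted p = 0.105). The ribosome IPs had 4.47, 2.34 and 4.41 CPM and the control IP 1.89 CPM (0.760 to 3.90, from 7 counts), which at this depth does not separate it from the ribosome IPs or from miP.

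**Figure D3:**
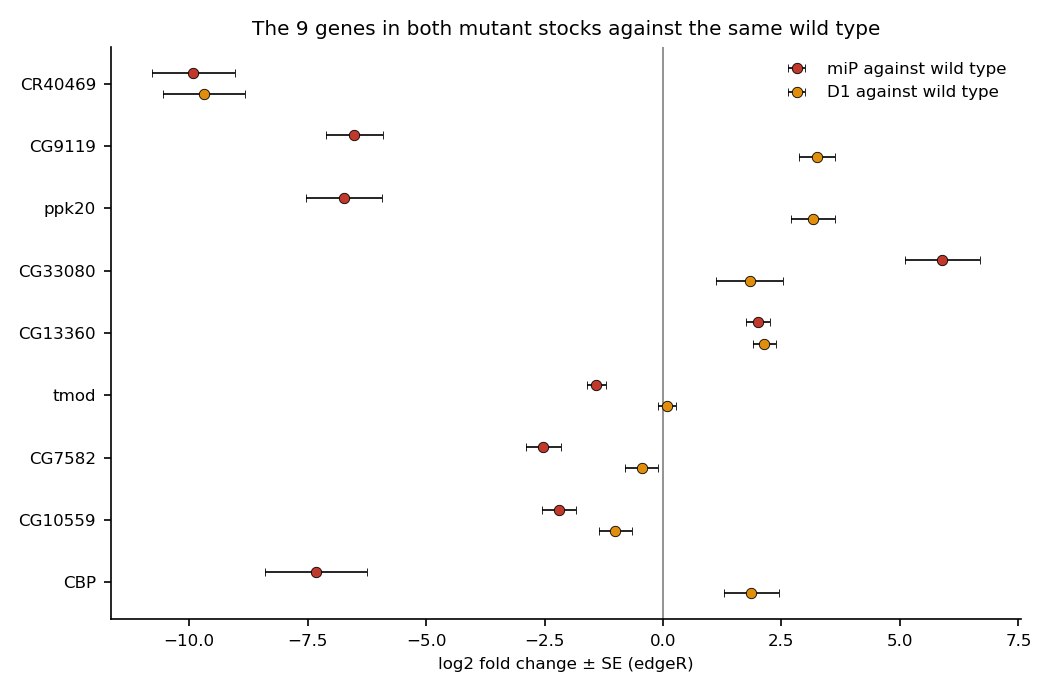
Log2 fold change with its SE from the edgeR fit of the 9 sorted libraries, for miP (upper point of each pair) and D1 (lower point), both against the same 3 wild-type libraries. The points lie close together for CR40469 and CG13360 and on opposite sides of 0 for CG9119, ppk20 and CBP (in D1, CBP did not pass 0.05 in edgeR). For tmod, CG7582 and CG10559 the D1 point is nearer to 0.

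In D1 against wild type, 4 of the 9 genes passed 0.05, beside 9.77% of all genes tested. CG9119, ppk20 and CG13360 were higher (6.14% of all genes) and CR40469 was lower (3.62% of all genes). Each of these 4 kept its call in 14 of 14 alternative settings. The wild-type libraries of this comparison are those that chose the genes, so its count is not independent of the choice. Between miP and D1, 6 of the 9 were past 0.05, beside 10.5% of all genes tested, which is a description, since the miP libraries chose the genes. On CPM, 6 of the 9 had D1 and wild-type libraries that did not overlap, beside 36.7% of all genes tested. With replicate 1 of both mutants left out, 8 of the 9 passed, all except tmod. The added ones were CG33080 (log2 fold change 2.22 ± 0.64, adjusted p = 0.0258), CG7582 (-0.85 ± 0.28, adjusted p = 0.0413), CG10559 (-1.24 ± 0.31, adjusted p = 0.0139) and CBP (1.92 ± 0.62, adjusted p = 0.0455). In that setting 2860 of 8536 genes passed in all. Taken by library, miP stood apart from wild type and D1 for 7 of the 9 genes (beside 3.33% of all genes tested). This too is a description, since the choice of genes fixed that miP lay apart from wild type. Among these 7, D1 lay on the opposite side of wild type from miP on CPM for CG9119, ppk20, tmod and CBP. Once scaled, tmod was no longer among them. The share of all genes tested with D1 on the opposite side from miP was not counted.

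Compared per length of exon, the levels of the 9 differed widely. In miP CG13360 was highest at 45.9 ± 10.9 CPM per kb (SD, n = 3), followed by CG33080 at 15.9 ± 6.66 and CR40469 at 6.19 ± 2.04, while CG7582 (1.60 ± 0.59), CG10559 (1.40 ± 0.46) and tmod (0.929 ± 0.072) were lower. In D1 the order began with CG13360 (72.0 ± 32.8), CG9119 (39.6 ± 8.09) and ppk20 (15.4 ± 3.68 CPM per kb). In wild type CR40469 led with 5278 ± 561 CPM per kb, far above CG13360 with 9.69 ± 1.68. Below them in wild type CG7582 had 7.83 ± 0.88, CG10559 5.55 ± 0.47, CG9119 2.59 ± 1.20, tmod 2.12 ± 0.25, ppk20 1.16 ± 0.34, CBP 0.287 ± 0.151 and CG33080 0.222 ± 0.099 CPM per kb. In that order CG13360 and CG7582, CG9119 and tmod, and CBP and CG33080 overlapped in their libraries.

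The ribosome IPs and their control use none of the libraries that chose the genes. They ask whether a transcript was enriched with tagged ribosomes of the driver's cells or was present at the level of the gland. None of the 9 passed 0.05 in ribosome IP against control IP, a count of 0 beside 3.52% of all 12723 genes tested (edgeR; 1 of the 9 at an unadjusted p under 0.05, and 1 by DESeq2). Nearest to the threshold was ppk20 at 1.46 ± 0.36 on the log2 scale (adjusted p = 0.0791; DESeq2 gave 0.0360), with all 3 ribosome IPs above the control. CG33080 (1.70 ± 0.87), CG10559 (1.36 ± 0.86), CG7582 (0.89 ± 0.52), CG13360 (0.71 ± 0.47) and tmod (0.66 ± 0.31) had positive values that did not pass. CR40469 (-3.07 ± 2.13), CBP (-1.50 ± 0.83) and CG9119 (-0.90 ± 0.52) had negative ones. The control is a single library, and the fit assumes that it varies like the ribosome IPs. Without ribosome IP 1, 3 of the 9 passed: ppk20 (adjusted p = 0.00883), CG33080 (adjusted p = 0.00702) and CR40469, with a log2 fold change of -9.40 ± 0.33 (adjusted p = 6.78e-14). The number of all genes passing was 1914 without ribosome IP 1, 716 without ribosome IP 2 and 1 without ribosome IP 3, against 448 with all libraries. In comparison, nSyb was higher in the ribosome IPs than in the control (4.14 ± 0.45, adjusted p = 0.0216).

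Ribosome IP and wild-type sorted cells differ in assay and stock together, which cannot be told apart, and 6 of the 9 passed 0.05 beside 80.6% of all 11621 genes tested. In the ribosome IPs ppk20 (log2 fold change 2.04 ± 0.28) and CG33080 (2.23 ± 0.60) were higher, as were 49.1% of all genes tested. CG13360 (-1.87 ± 0.24), CG7582 (-1.89 ± 0.22), CG10559 (-2.67 ± 0.34) and CR40469 (-5.56 ± 1.89) were lower, as were 31.5% of all genes tested.

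By position, 4 of the 9 genes are on the X chromosome, 4 on 3R and 1 on 3L. ppk20 and CG7582 are 11.4 kb apart, and tmod lies 850 kb beyond CG7582. The nearest genes tested, 5 on each side, gave 80 neighbours that are not among the 9. None passed 0.05 in miP (0 in edgeR, and 3 in DESeq2, which were CG4096, LysD and LysE), and 10 had an unadjusted p under 0.05 (12.5%), beside 3.55% of all genes tested. With 10 genes on each side it was 14 of 155 (9.03%). In D1 10 of the 80 passed 0.05 in edgeR (12.5%, beside 9.77% of all genes tested) and 19 in DESeq2. The DESeq2 count in D1 is given without its share over all genes, so it does not describe the neighbours as a set.

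The neighbours of CG9119 account for 6 of the 10. CG9119 lies inside mwh, the multiple wing hairs gene, which runs on the opposite strand and shares no exon with it. mwh had 0, 0.0480 and 0 CPM in miP, 3.62, 30.7 and 43.0 CPM in D1, and 0.851, 0.425 and 0.153 CPM in wild type, the same order of groups as CG9119. Its log2 fold change was -4.62 ± 1.34 in miP and 4.88 ± 0.80 in D1 (adjusted p = 0.00391). The next tested genes to the right of CG9119 are the lysozyme genes LysB, LysD and LysE, which are near-identical copies whose counts are uncertain, and Psf1, a subunit of the GINS replication complex. Their log2 fold changes in miP were -2.43 ± 1.03, -2.82 ± 0.69, -2.79 ± 0.71 and -1.98 ± 0.51, and in D1 2.38 ± 0.87, 1.86 ± 0.60, 2.09 ± 0.66 and -0.91 ± 0.49, none past 0.05 in edgeR. In DESeq2 LysD (adjusted p = 0.0274) and LysE (0.0112) passed in miP, and LysB (0.0279), LysD (0.0214) and LysE (0.00792) in D1. LysD, as an example, had 0.215, 0.432 and 0.220 CPM in miP, 14.8, 5.16 and 6.66 CPM in D1, and 1.62, 2.36 and 1.38 CPM in wild type. CG9119, mwh and the 4 genes to the right thus had lower values in miP over consecutive tested genes. The lysozyme genes lie inside mwh (1200786 to 1232700) as CG9119 does, so most of this run is 1 nested locus. Sac1, beyond Psf1, had a value of 0.75 ± 0.33.

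**Figure D4:**
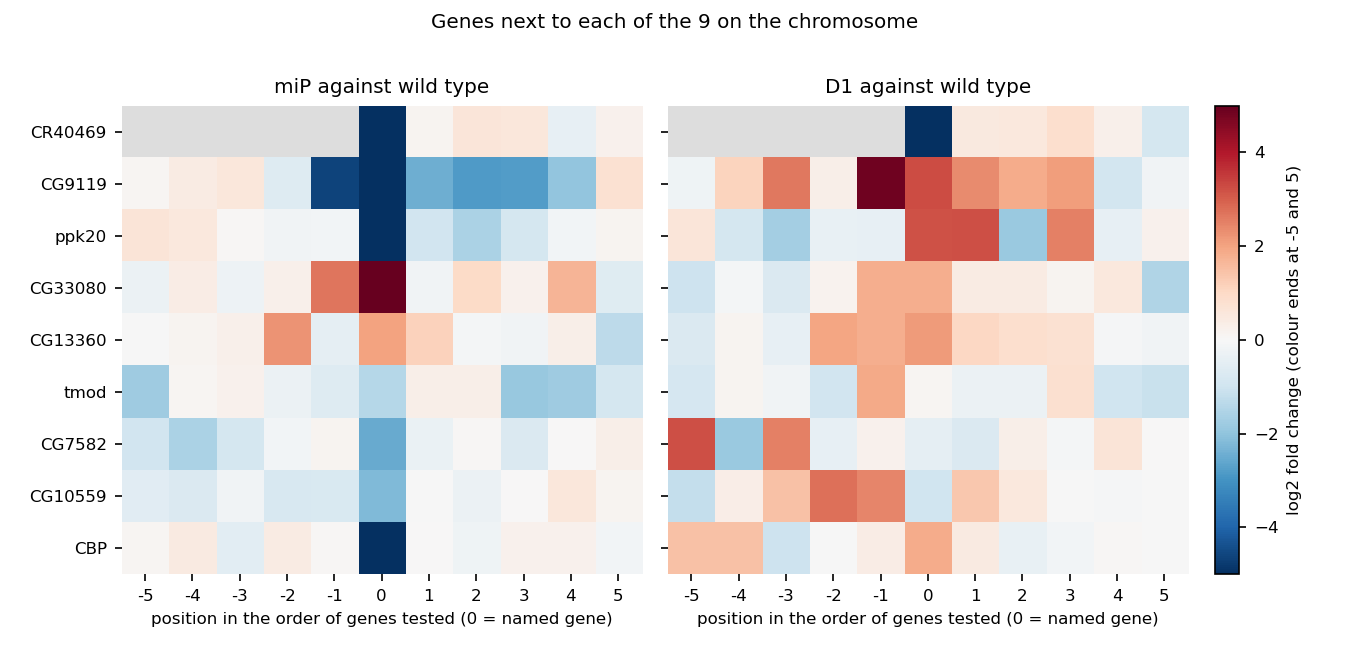
Log2 fold change of the 5 genes tested on each side of each of the 9 genes, in order of start position, for miP (left) and D1 (right) against wild type, with blue for lower and red for higher values. Grey marks positions beyond the first tested gene of the X chromosome. Beside CG9119 the run of blue in miP covers mwh, LysB, LysD, LysE and Psf1, and in D1 mwh and the lysozyme genes are red, of which mwh passed 0.05 in edgeR and all 4 in DESeq2.

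Around the other 8 genes, 4 of 70 neighbours had an unadjusted p under 0.05 in miP (5.71%, beside 3.55% of all genes tested). They were CG4096, given above, CG31087, CG4078 and CG16989. CG4078, 29.97 kb from CG33080, had a log2 fold change of 1.70 ± 0.48 in miP and 0.52 ± 0.47 in D1, and CG16989, 3.06 kb from CG13360, had 1.17 ± 0.49 in miP and 1.04 ± 0.49 in D1. Both had positive values in miP like the gene they lie near, and neither passed after adjustment (adjusted p = 0.792 and 0.940 in miP). The genes on either side of ppk20, CG1907 and the channel gene ppk30, had log2 fold changes of -0.13 ± 0.19 and -0.94 ± 1.38 in miP. In D1 ppk30, 0.271 kb from ppk20, had 3.21 ± 1.14 and ppk19, 3.58 kb from it, 2.54 ± 0.86, both positive like ppk20. These did not pass in edgeR (adjusted p = 0.116 and 0.102) and passed in DESeq2 (0.0495 and 0.0140). The level of ppk19 was 0, 0.336 and 0.330 CPM in miP, 4.05, 1.81 and 2.53 CPM in D1, and 0.298, 0.236 and 0.460 CPM in wild type. Both ppk19 and ppk30 passed the filter on low counts through the D1 libraries. Beside CG7582, Cap-D2 and Pcd had 0.15 ± 0.62 and -0.33 ± 0.48 in miP. CR45553 and CG9702 beside tmod had -0.66 ± 0.92 and 0.28 ± 0.98. CG18155 and CHES-1-like beside CBP had 0.061 ± 0.970 and 0.025 ± 0.359. RhoGAP1A, the first tested gene after CR40469, had 0.13 ± 0.48 in miP and 0.49 ± 0.48 in D1, at a distance of 4.74 kb. Beside CG10559 the values in miP were -0.76 ± 0.27 for CG31087 and -0.031 ± 0.315 for CHKov1. In D1 4 of the 10 neighbours of CG10559 rose: CG31087 (2.44 ± 0.28, adjusted p = 5.73e-04), CG10550 (2.77 ± 0.54, adjusted p = 0.00981), CG31436 (1.46 ± 0.29, adjusted p = 0.0103) and CHKov1 (1.34 ± 0.32, adjusted p = 0.0254). CG10559 itself went the other way in D1 without passing.

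The gene families of 4 of the 9 were examined as lists, chosen with earlier results of these data known. Of 31 DEG/ENaC channel genes, 7 were tested. In edgeR ppk20 was the 1 past 0.05 in miP (lower) and in D1 (higher), and the other 6 had median log2 fold changes of -0.96 in miP and 0.65 in D1, beside -0.012 and 0.0037 over all genes tested. Among them ppk13 and ppk25 had 4 and 2 counts in miP, with log2 fold changes of -4.02 ± 0.84 and -4.54 ± 0.98 that did not pass in edgeR (adjusted p = 0.429 and 0.478) and passed in DESeq2. In D1 they had 0.058 ± 0.659 and 0.36 ± 0.72, while DESeq2 called ppk20, ppk19 and ppk30 there, all higher. ppk19 and ppk30 had at most 0.460 CPM in any miP or wild-type library and passed the default filter through D1. The medians of the family are thus partly fixed by the filter and are a description only.

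Of 16 actin filament genes tested, tmod was the 1 past 0.05 in miP in edgeR, and the other 15 had a median of -0.28. Among these, Act42A was fitted at 0.499 of its wild-type level in miP (SE 0.21 on the log2 scale), which did not pass in edgeR (adjusted p = 0.461) and passed in DESeq2 (adjusted p = 0.0485). In D1 sals, an actin filament lengthening factor (3.39 ± 0.34, adjusted p = 2.35e-04), and Act42A (1.01 ± 0.21, adjusted p = 0.0140) rose in both tools, 2 of 16 beside 6.14% of all genes tested, and the median of the 15 was 0.31. Of 6 EF-hand genes tested, 0 passed in either mutant (edgeR; DESeq2 called CBP in both; CBP and CanB had an unadjusted p under 0.05 in miP, CBP and Nca in D1). Of 14 ecdysteroid kinase-like genes tested, 0 passed in miP (edgeR; DESeq2 called CG10559; CG10559, CG31087 and CG5644 had an unadjusted p under 0.05). CHKov1, given above as a neighbour of CG10559, and CHKov2 were not on this list. In D1 4 of the 14 rose, CG31087, CG10550, CG31436 and CG2004 (2.30 ± 0.24, adjusted p = 2.95e-04), and CG31102 fell (-1.03 ± 0.21, adjusted p = 0.0116), beside 6.14% of all genes tested higher and 3.62% lower. DESeq2 called these 5 and CG31288, which edgeR's filter left out. Of 7 Bithorax complex genes tested, 0 passed in miP (0 in edgeR at an unadjusted p under 0.05, and 0 in DESeq2), with a median of 0.16, while 5 fell in D1, beside 3.62% of all genes tested.

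For the other 6 genes the closest profiles over the sorted libraries were those of fd68A for CR40469 (Pearson's r 0.948), Hakai for CG33080 (0.921), Lk6 for CG13360 (0.893), Dp for tmod (0.922), CG10194 for CG7582 (0.949) and Mfap1 for CG10559 (0.893), each over 9 libraries of 3 genotypes.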

How the data were processed

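The authors deposited 1 table of raw read counts for each gene and library. Per the submitters' processing notes, STAR, HTSeq and the genome build dm6 were used, for which the sources used here give no versions or settings. Per the labels, 2 ng of RNA was reverse transcribed from poly(dT) primers (SMARTer), and Nextera XT libraries, which keep no strand, were read as single reads of 100 nt. The table held 16727 symbols and 13 libraries, with 0 columns unassigned. Gene positions were those of Ensembl release 115 (dm6), to which 12512 symbols matched as written and 4066 by a synonym, while 149 did not match.

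CPM are counts per 1e6 of the library total. The 9 sorted libraries were fitted together in edgeR 4.0.16 (R 4.3.3; quasi-likelihood F-tests, TMM factors, default expression filter, Benjamini-Hochberg adjustment over all genes tested at 0.05), and the IPs in fits of their own. The SE of a fold change was computed from its F statistic. A group at 0 counts was given a floor of 3 counts over the group. Intervals of counts (95%) cover counting error only, since amplified reads carried no molecular barcodes. P-values measure the spread between these libraries.

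The 9 genes, the gene lists and the tests were chosen with earlier results of these data known. Named beside the 9 were the nearest tested gene on each side, the 3 most correlated genes (TMM log2 CPM, mean of at least 5 CPM), nSyb, and up to 4 members of a list past 0.05. Further neighbours, ppk13, ppk25, CG1444, genes named for a DESeq2 call and genes named at an unadjusted p were chosen after their values were seen. Marker lists not given in the report summed, over the sorted libraries, to 1.70 to 22.6 CPM (ejaculatory duct and bulb), 2.19 to 10.3 (haemocyte) and 0.0953 to 1.08 (fat body).

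The fits were repeated with DESeq2 1.42.0, with RLE or upper-quartile factors, other filters (none, or 5 CPM in 3 libraries), only the groups compared, each library left out and a block for the replicate number. Same-number deviations correlated at 0.432, 0.169 and 0.312 between miP and D1, which by the rule used (each above 0.1) pairs them, and not between either and wild type (-0.226 to 0.250). The labels give no reason for such a pairing. Leaving out replicate 1 of both mutants was added after seeing the data. The fits were tested on simulated data. Python 3.11.15, pandas 2.3.3, numpy 2.4.6, scipy 1.17.1 and matplotlib 3.10.9 made the tables and figures.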

Additional observations from a re-analysis of the deposited data

How the results depend on the processing

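The values of the 9 genes under 549 combinations of gene, comparison and alternative kept direction and side of the threshold in 481, fell short of the threshold in 30 (each in miP against wild type), newly passed it in 29 and changed sign in 9. Counts of all genes passing moved more. In miP against wild type 7 genes became 33 with DESeq2, 4 with the replicate block (pairing by number) and 993 with replicate 1 of miP and of D1 left out, and 0 to 3 with 1 library left out. In D1 against wild type 803 became 2860 without both replicates 1 and 370 to 2095 with 1 library left out. In miP against D1 867 became 475 with only these groups fitted, 1739 without both replicates 1 and 535 to 1521 with 1 library left out; the block gave 875. In ribosome IP against control IP 448 became 1084 with DESeq2 and 1 to 1914 with 1 library left out. The 2 genes with both mutants on the same side of wild type became 4 without wild-type replicate 2. Leaving out a library loosens that rule for every gene, and the share of all genes in that setting is not given here. The causes were not tested.

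Signs changed only where values were near 0. For miP against D1, CR40469 (-0.22) had 0.65 without both replicates 1, 0.0024 with the replicate block and -0.68 to 1.09 (without D1 replicate 1) with 1 library left out, and CG13360 (-0.13) had -0.28 to 0.092 (without D1 replicate 2). For ribosome IP against wild type, CG9119 (-0.13) had 0.21 with DESeq2, 0.21 with RLE factors and -0.47 to 0.29 with 1 library left out, positive without ribosome IP 1, ribosome IP 3 or wild-type replicate 2. The block lost the miP calls of CG13360 (adjusted p = 0.0563) and tmod (adjusted p = 0.0962) and changed no call of the 9 in D1 against wild type or miP against D1. CBP is too low for the filter of 5 CPM. In ribosome IP against control IP, CR40469, CG33080 and CG10559 did not pass that filter either, nor did CG33080 in ribosome IP against wild type. A block could not be fitted to ribosome IP against control IP, which share 1 number.

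Depth limits CBP, CG33080 and ppk20 most, with 54, 57 and 147 counts over the 3 wild-type libraries, and the control IP holds 3.70 in units of 1e6 counts.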
